A study of Mus musculus with 5 samples.

Results

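This report describes 918 nuclei of limb connective tissue mesenchyme from the wild-type hindlimb muscle of mouse embryos at E14.5, out of 4829 nuclei within the depth limits of that library and 22301 barcodes in the 5 libraries together. The nuclei were chosen by their RNA. A nucleus entered with 401 to 24999 gene UMIs (unique molecular identifiers, each counting 1 captured RNA molecule), with Ttn, the titin gene of muscle fibers, under 1% of these UMIs, with Tnmd, a tendon gene, at 0 UMIs, and with at least 3 of 10 mesenchymal markers (Pdgfra, Dcn, Lum, Dpt, Col14a1, Abca8a, Mfap5, Osr1, Twist2 and Ebf2) that summed to 0.1% or more of its UMIs. The same gate in the wild-type E18.5 library gave 1475 of 4283 nuclei, and the nuclei at E14.5 are described against these.

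The study read RNA and open chromatin in the same nuclei (10x Genomics multiome) of hindlimb skeletal muscle dissected without skin and bone. Wild-type C57BL/6N embryos were taken at E14.5 and at E18.5, and wild-type mice of the same strain at P5 and as adults. Cacna1s-/- embryos of that strain at E18.5 lack the voltage-sensing calcium channel subunit of skeletal muscle. Each group is 1 library from pooled hindlimbs, with 56 hindlimbs for E14.5, 14 for E18.5, 8 for P5, 4 for the adult and 26 for the Cacna1s-/- embryos. Nuclei positive and negative for PCM1, a protein that marks myonuclei, were sorted apart and mixed in equal volumes, so that the share of a cell type in a library is also set by the sort. With 1 library per group no difference has a replicate check. Intervals are exact 95% intervals for counting error only, "higher" and "lower" mean at least 2-fold in CPM (UMIs of a gene scaled to the same UMI total of gated nuclei in each library), and a gene counts as measured with 20 or more UMIs in 1 of both libraries.

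The mesenchyme of the limb bud comes from lateral plate mesoderm and gives rise to the connective tissue around muscle, to tendon and to the skeleton, while the muscle fibers themselves descend from somites. Muscle connective tissue fibroblasts pattern the muscles with positional transcription factors and secreted signals, and later lay down the collagens and proteoglycans of the muscle matrix. Pdgfra, the PDGF receptor alpha, marks this lineage into adult life, and Osr1, Twist2 and Ebf2 are transcription factors of its progenitors.

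The values that chose the nuclei are given here as a description. Pdgfra stood at 378 CPM at E14.5, against 331 CPM at E18.5, and Ebf2 at 1537 CPM at E14.5, against 1619 CPM at E18.5. Twist2 (77.5 CPM at E14.5, against 23.0 CPM at E18.5) and Osr1 (79.8 against 33.2 CPM) had more CPM at E14.5, whereas genes of the mature fibroblast had less. Dpt, encoding dermatopontin, stood at 23.4 CPM at E14.5, against 77.6 CPM at E18.5, Abca8a at 83.1 against 427 CPM, and Mfap5, encoding a microfibril protein, at 24.1 against 154 CPM. The 7 markers of the label, Pdgfra, Dcn, Lum, Osr1, Twist2, Ebf2 and Col14a1, were all detected and summed to 2899 CPM at E14.5, against 3686 CPM at E18.5. In nuclei of the E14.5 library with Ttn at 1% or more, Pdgfra was at 15.3 CPM and Ebf2 at 53.5 CPM, and in nuclei gated on endothelial markers they were at 31.1 and 38.8 CPM. Nuclei that passed the mesenchymal gate were kept out of the endothelial nuclei, so the low values there are partly set by that choice.

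**Figure D1:**
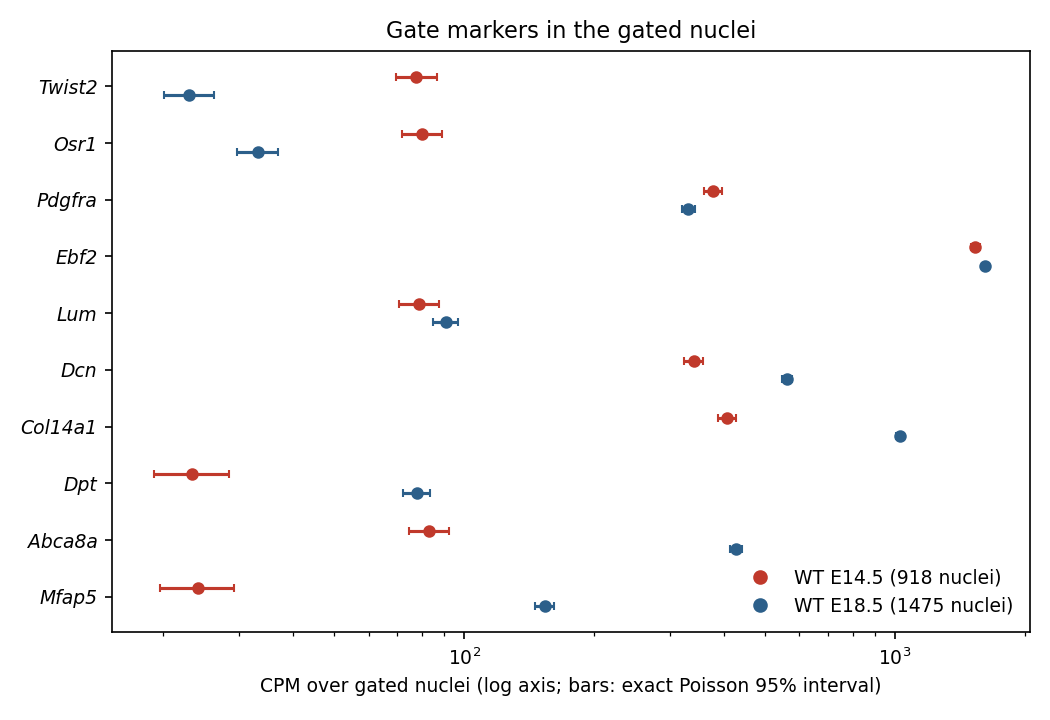
CPM (log axis) of the 10 gate markers in the gated nuclei of WT E14.5 (red, 918 nuclei, upper point of each pair) and WT E18.5 (blue, 1475 nuclei, lower point), with bars for exact Poisson 95% intervals. Twist2 and Osr1 lie to the right at E14.5, Pdgfra, Ebf2 and Lum lie near each other, and Mfap5, Abca8a and Dpt lie to the left at E14.5.

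The nuclei at E14.5 sat nearer to the edge of the gate. Exactly 3 markers were found in 430 of the 918 nuclei (46.8%), against 113 of the 1475 nuclei at E18.5 (7.66%). A further 465 nuclei at E14.5, against 72 at E18.5, met the other conditions with 2 markers, and at E14.5 these held Pdgfra at 423 CPM. Just inside the Ttn limit, at 0.5 to 1% of UMIs, lay 40 nuclei at E14.5 and 29 at E18.5, and just outside it, at 1 to 2%, lay 23 at E14.5 and 89 at E18.5. A Tnmd UMI kept out 39 nuclei at E14.5 and 215 at E18.5. The marker sum was 0.1 to 0.15% in 100 nuclei inside the gate at E14.5 and in 39 at E18.5.

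The gated nuclei carried 4272636 UMIs at E14.5 (median 4090.5 per nucleus) and 9687135 UMIs at E18.5 (median 5653). Their share of the nuclei within the depth limits was 19.01% at E14.5 (exact binomial interval 17.9 to 20.1%) and 34.4% at E18.5 (33.0 to 35.9%). Scrublet called 51 of the 918 and 111 of the 1475 nuclei doublets, and these were kept. Between 17 and 47 barcodes were shared by any 2 libraries, and 1 was shared by gated nuclei at E14.5 and E18.5. Markers of other cells were present as well. Summed over each marker list, myonuclear markers stood at 1091 CPM at E14.5, against 1012 CPM at E18.5. Ttn, which the gate limits, made 736 and 509 CPM of these sums, so they are partly set by the gate. At E14.5, 87.5% of the myonuclear UMIs came from a sub-cluster of 41 nuclei with fiber RNA (sub-cluster 8, described below), at 10203 CPM. Without it the myonuclear markers stood at 150 CPM. Chondro-osteogenic markers stood at 165 CPM at E14.5, against 98.2 CPM at E18.5, and tendon markers, with Tnmd at 0 by the gate, at 103 against 80.9 CPM. Runx2 made 135 and 60.7 CPM of the chondro-osteogenic sums, and Mkx 66.0 and 25.6 CPM of the tendon sums. The higher sums at E14.5 rest on these genes. Neuronal markers stood at 77.2 against 38.8 CPM, erythroid markers at 70.7 against 14.7 CPM, and macrophage markers at 3.74 against 103 CPM, with Adgre1 and C1qa at 0 at E14.5. Keratinocyte markers summed to 38.1 CPM at E14.5, against 3.82 CPM at E18.5, of which Trp63 made 36.3 CPM at E14.5, while Krt5, Krt14 and Krt15 were at 0.234 CPM or less there, and 91.4% of the keratinocyte UMIs came from the same 41 nuclei. Fiber markers other than Ttn, by which both sets were chosen, stood in the gated nuclei below their level in nuclei with Ttn at 1% or more. They were at 3.95 to 8.30% of that level at E14.5, and at 2.40 to 9.41% at E18.5. At E14.5 most UMIs of each fiber marker except Acta1 came from the 41 nuclei.

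Of 13662 genes measured in the gated nuclei, 1163 (8.51%) were higher and 1233 (9.03%) lower at E14.5, and the median log2 ratio was -0.02. The counts of each gene list below are to be read against these shares. For 644 of the higher and 460 of the lower genes the counting interval lay wholly past 2-fold. Higher genes were long, with a median length of 64.5 kb, against 18.52 kb for lower genes and 26.9 kb for genes within 2-fold. Among the 550 measured genes over 300 kb, 40.0% were higher and 4.73% lower, and in nuclei with Ttn at 1% or more of the same libraries 34.8% of the 561 genes over 300 kb were higher. The part of gene length in the ratios was not tested, and lengths are given below where a list holds many long genes.

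**Figure D2:**
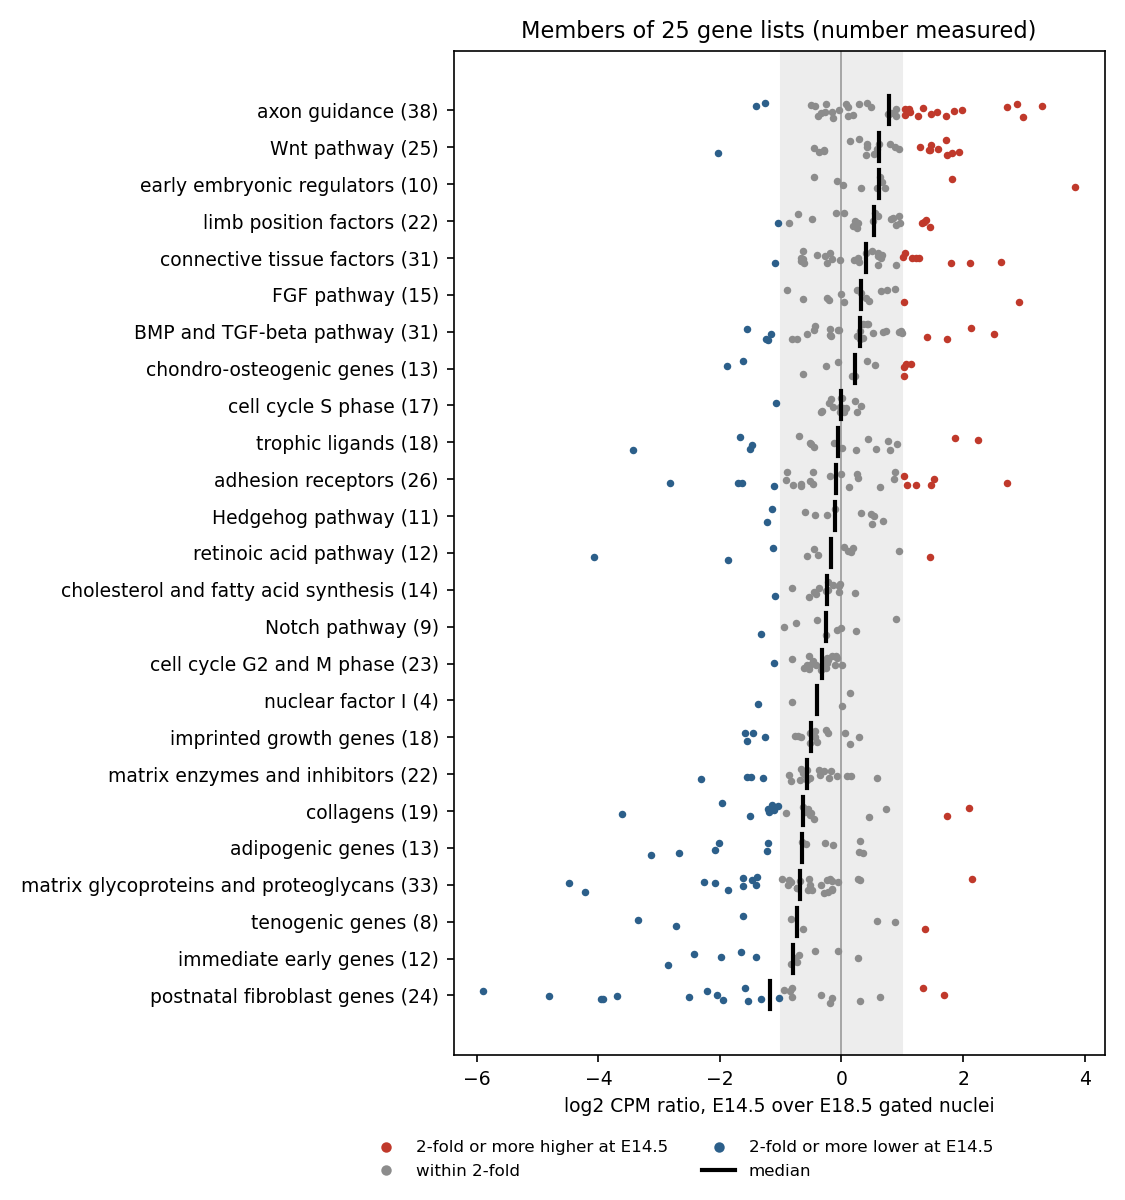
Log2 CPM ratio, E14.5 over E18.5, of each measured member of 25 gene lists (points, jittered in height), with the list median as a black bar and the band within 2-fold in grey. The medians run from 0.77 for axon guidance genes at the top to -1.18 for postnatal fibroblast genes at the bottom.

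Factors that place a cell along the limb axes were mostly kept near their E18.5 level or above it. Of 22 measured limb position factors, 4 were higher and 1 lower at E14.5, with a median log2 ratio of 0.54 against -0.02 over all measured genes. Meis2, a homeobox factor of the proximal limb (chr2:115863064-116065839 in GRCm38, as are all gene positions), stood at 1027 CPM at E14.5, against 409 CPM at E18.5, which is 2.51-fold higher (2.41 to 2.62). Pitx1, which gives the hindlimb its identity, stood at 72.3 CPM at E14.5, against 28.2 CPM at E18.5 (2.57-fold, 2.17 to 3.03). Isl1, needed to start the hindlimb bud, was at 17.6 against 6.40 CPM, and Hoxa11, a Hox gene of the middle limb segment, at 7.02 against 2.68 CPM. At P5 Pitx1 stood at 10.1 CPM and Meis2 at 290 CPM. En1 was at 3.04 CPM at E14.5, against 6.30 CPM at E18.5, from 13 and 61 UMIs, and came within 2-fold under several alternatives, with a log2 ratio of -0.63 without nuclei with G2 and M UMIs. Meis1, within 2-fold, stood at 637 CPM at E14.5, against 343 CPM at E18.5.

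Transcription factors of connective tissue leaned the same way, with 8 of 31 measured genes higher, 1 lower and a median log2 ratio of 0.40. The size of this lean depended on the setting, with medians between 0.064 and 0.58 over the alternatives. After thinning, 4 of 23 measured genes were higher and the median was 0.064. Under both edgeR and DESeq2 scaling 6 of 31 were higher, and among nuclei with exactly 3 or 4 gate markers the median was 0.20. Eya1, a transcriptional cofactor with phosphatase activity, stood at 73.5 CPM at E14.5, against 17.0 CPM at E18.5 (4.31-fold, 3.56 to 5.24), a log2 ratio of 2.11 that ran between 1.43 among nuclei with exactly 3 or 4 gate markers and 3.18 after thinning. Nr2f1, an orphan nuclear receptor, was 3.48-fold higher (2.55 to 4.79) at 24.8 against 7.12 CPM, and the LIM homeobox gene Lhx9 at 8.89 against 1.45 CPM from 38 and 14 UMIs. Foxp2, a forkhead factor, was higher by 2.42-fold (834 CPM at E14.5 against 344 CPM at E18.5). Unthinned, the share of nuclei with a Foxp2 UMI was 50.3% at E14.5 and 51.4% at E18.5. These shares come from unequal depth, with medians of 4090.5 and 5653 UMIs per nucleus. Twist1, Alx4, Erg and Foxc1 completed the higher members. Klf4 was the lower member, at 26.4 CPM against 56.8 CPM, but lay within 2-fold with at least 4 gate markers (log2 ratio -0.85) and with exactly 3 or 4 (-0.70). The broad mesenchymal factors Ebf1 (2986 CPM at E14.5 against 3400 CPM at E18.5) and Tcf4 (1966 and 1993 CPM) lay within 2-fold.

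Among genes of the early embryo, 2 differed widely between the stages. Lin28b, which blocks the maturation of let-7 microRNAs, had 57 UMIs (13.3 CPM) at E14.5 and 9 UMIs (0.929 CPM) at E18.5, a 14.4-fold difference with an interval of 7.06 to 33.0. Hmga2 (chr10:120361275-120476469), a chromatin protein whose transcript is a let-7 target, stood at 634 CPM at E14.5, against 179 CPM at E18.5 (3.54-fold, 3.33 to 3.77), and at 30.8 CPM at P5 and 1.77 CPM in the adult. It was detected in 65.6% of the nuclei at E14.5 and in 38.6% at E18.5, and after thinning each nucleus to 1000 UMIs in 36.6% and 15.4%. Of 10 measured early embryonic regulators these 2 were higher and 0 were lower. The RNA-binding proteins Igf2bp2 (340 CPM at E14.5 against 358 CPM at E18.5) and Igf2bp3 (300 and 239 CPM) lay within 2-fold. Among the 4 nuclear factor I genes, Nfib stood at 3659 CPM at E14.5, against 3640 CPM at E18.5, and Nfia at 3359 against 3052 CPM, while Nfic was 2.59-fold lower (29.5 CPM at E14.5 against 76.4 CPM at E18.5).

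Many axon guidance genes were higher. Of 38 measured members, 15 were higher and 2 lower at E14.5, with a median log2 ratio of 0.77, the highest of the 25 lists in the gate used here. That rank did not hold throughout. Without sub-cluster 8, which was left out at E14.5 only, the median was 0.55, below that of Wnt genes (0.62). With nuclei chosen by Pdgfra alone it was 0.75, below that of chondro-osteogenic genes (0.84). Without called doublets in both libraries it was 0.82. Slit2 (chr5:47983138-48307733), a secreted ligand that repels axons and migrating cells through Robo receptors, stood at 744 CPM at E14.5, against 101 CPM at E18.5 (7.38-fold, 6.87 to 7.94). Its receptors Robo1 (1763 CPM at E14.5 against 1029 CPM at E18.5) and Robo2 (1260 and 942 CPM) lay within 2-fold. The netrin receptors Unc5c (385 against 38.9 CPM, 9.88-fold, 8.83 to 11.1) and Dcc (709 against 108 CPM, 6.58-fold, 6.13 to 7.07) were both higher, as was the ephrin receptor Ephb1 (61.1 against 7.74 CPM), whose log2 ratio was 5.88 without called doublets and 2.98 with them. Detection differed in the same sense. After thinning to 1000 UMIs, Slit2 was found in 28.3% of nuclei at E14.5 and in 6.5% at E18.5, Dcc in 22.5% and 4.0%, and Unc5c in 19.2% and 2.3%, and the unthinned shares were 46.0% and 15.9%, 35.0% and 7.93%, and 33.2% and 6.24%. In endothelial nuclei at E14.5, thinned in the same way, Slit2 was in 9.2%, Dcc in 0.9% and Unc5c in 5.5%. The list is made of long genes, with a median of 172 kb. Its 12 genes up to 100 kb held 4 higher and 1 lower genes with a median log2 ratio of 0.20, and its 26 longer genes held 11 higher and 1 lower with a median of 0.83. Over all measured genes, 6.12% of those up to 100 kb and 20.1% of the longer ones were higher. The semaphorin gene Sema3c ran the other way, at 422 CPM at E14.5, against 1011 CPM at E18.5 (2.40-fold lower, 2.28 to 2.52), but lay within 2-fold (log2 ratio -0.84) among nuclei with exactly 3 or 4 gate markers.

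Adhesion receptors split. Of 26 measured, 6 were higher and 4 lower, with a median log2 ratio of -0.10. Cdh6, a classical cadherin, stood at 121 CPM at E14.5, against 18.4 CPM at E18.5 (6.59-fold, 5.54 to 7.85), and the integrin subunits Itga8 (123 against 44.2 CPM) and Itgb8 (103 against 43.7 CPM) were also higher. Itga8 lay within 2-fold (0.92) among nuclei with exactly 3 or 4 gate markers. Itga4 was higher at 37.2 against 13.01 CPM, yet 42.1% of its UMIs at E14.5 came from sub-cluster 8. With that sub-cluster left out at E14.5 only, the log2 ratio of Itga4 was 0.87. The lower members were Itgb3, Itga2, Itga1 and Cd44. Itgb3 stood at 5.15 CPM at E14.5, against 36.2 CPM at E18.5 (7.04-fold lower, 4.57 to 11.4), the collagen receptor subunit Itga2 at 8.19 against 26.7 CPM, and the hyaluronan receptor Cd44 at 155 against 482 CPM (3.10-fold lower, 2.86 to 3.37). Itga1 lay within 2-fold (-0.98) with nuclei chosen by Pdgfra alone.

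Among signalling pathways, Wnt genes stood out by count, with 9 of 25 measured members higher and 1 lower at E14.5 (median log2 ratio 0.62). Rspo3 (chr10:29452416-29535867), a secreted amplifier of Wnt signalling, stood at 254 CPM at E14.5, against 72.3 CPM at E18.5 (3.52-fold, 3.20 to 3.88). Lgr6, a receptor for R-spondins, had 32 UMIs (7.49 CPM) at E14.5 and 19 UMIs (1.96 CPM) at E18.5. The ligand Wnt11 (11.9 against 3.61 CPM) and the inhibitor Wif1 (16.1 against 4.85 CPM) were higher too, and Wif1 stood at 126 CPM in the Ttn-rich nuclei of the E14.5 library. With nuclei chosen by Pdgfra alone the log2 ratio of Wif1 was 0.95. Lef1, Lgr5, Frzb, Dkk2 and Sfrp2 were the other higher members. Sfrp4, a secreted Wnt antagonist, was 4.10-fold lower (8.66 CPM at E14.5 against 35.5 CPM at E18.5). The receptor Ror1 stood at 1240 CPM at E14.5, against 1020 CPM at E18.5.

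BMP and TGF-beta genes went both ways, with 4 of 31 higher and 4 lower (12.9% each, against 8.51% and 9.03% over all measured genes). The receptor gene Bmpr1b, known for cartilage condensation in the limb, stood at 550 CPM at E14.5, against 125 CPM at E18.5 (4.40-fold, 4.11 to 4.72). It was also abundant in Ttn-rich nuclei, at 952 CPM at E14.5. The activin subunit gene Inhba (30.0 against 8.98 CPM) and the pseudoreceptor gene Bambi (9.83 against 3.72 CPM) were higher. Lower were the ligand Bmp4 (18.49 against 42.9 CPM, 2.32-fold) and the antagonists Chrdl1 (21.5 against 63.3 CPM) and Chrd (7.49 against 16.8 CPM), with Fstl1 at 338 against 800 CPM. Chrd lay within 2-fold in 5 alternatives, among them nuclei chosen by Pdgfra alone (log2 ratio -0.82) and those without called doublets (-0.98), and stood at -2.26 after thinning.

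In the FGF list 2 of 15 genes were higher (13.3%, against 8.51% over all measured genes) and 0 lower. The number higher ran between 1 and 3 over the alternatives, with 1 under both edgeR and DESeq2 scaling. Fgf9 had 70 UMIs (16.4 CPM) at E14.5 and 21 UMIs (2.17 CPM) at E18.5, but stood at 221 CPM in Ttn-rich nuclei of the E14.5 library, and 51.4% of its UMIs came from the 41 nuclei with fiber RNA. With these nuclei left out at E14.5 only, its log2 ratio was 2.02, against 2.92 with them. Fgf10, the mesenchymal ligand of limb outgrowth, was within 2-fold at 242 CPM at E14.5 and 131 CPM at E18.5. Among 11 Hedgehog genes 2 were lower (18.2%, against 9.03% over all measured genes) and 0 higher. Gli1, a target of the pathway, was 2.20-fold lower (23.9 CPM at E14.5 against 52.5 CPM at E18.5). Gli1 lay within 2-fold with at least 2 gate markers (log2 ratio -0.88), with Pdgfra alone (-0.96) and without nuclei with G2 and M UMIs (-0.97). Gli3 stood at 873 CPM at E14.5, against 622 CPM at E18.5. In the retinoic acid list 1 of 12 genes was higher and 3 were lower. The retinal dehydrogenase gene Aldh1a1 had 16 UMIs (3.74 CPM) at E14.5 and 611 UMIs (63.1 CPM) at E18.5, 16.8-fold lower (10.3 to 29.7), and reached 576 CPM in the adult. Aldh1a2 was 2.18-fold lower, but within 2-fold (-0.94) among nuclei with exactly 3 or 4 gate markers, and Crabp2, which carries retinoic acid in the cytoplasm, stood at 6.79 against 2.48 CPM. Among 9 Notch genes, the target gene Hes1 was lower (25.04 CPM at E14.5 against 62.5 CPM at E18.5) and 0 were higher. That is 11.1% lower, near the 9.03% over all measured genes.

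Of 18 trophic ligands, 2 were higher and 4 lower. Pdgfc stood at 150 CPM at E14.5, against 31.6 CPM at E18.5 (4.76-fold, 4.14 to 5.47), beside 1162 CPM in Ttn-rich nuclei at E14.5, and the neurotrophin gene Bdnf at 9.83 against 2.68 CPM. Vegfa, the endothelial growth factor, was 2.83-fold lower (2.37 to 3.39) at 33.7 against 95.3 CPM, and the macrophage growth factors Csf1 (11.2 against 31.3 CPM) and Il34 (0.468 against 5.06 CPM, from 2 and 49 UMIs) were lower as well. Nrg1, a ligand of ErbB receptors that Schwann cells depend on, was abundant at 1778 CPM at E14.5, against 944 CPM at E18.5, which is 1.88-fold, and it stood at 36.9 CPM at P5 and 5.32 CPM in the adult.

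The matrix genes were mostly at or below their later level. Of 19 measured collagen genes, 2 were higher and 8 lower at E14.5, with a median log2 ratio of -0.63. Col1a1 (chr11:94936224-94953042), the chief chain of type I collagen, stood at 333 CPM at E14.5, against 1294 CPM at E18.5 (3.89-fold lower, 3.68 to 4.11). Col5a3, a minor chain of type V collagen, showed the widest gap at 19.4 against 237 CPM (12.2-fold lower, 9.81 to 15.4). Col6a1, of the microfibrils around cells, stood at 95.7 against 271 CPM, and Col4a1, of basement membranes, at 123 against 285 CPM. Col3a1 stood at 1468 CPM at E14.5, against 2757 CPM at E18.5, and was within 2-fold. The transmembrane collagen Col23a1 was higher at 177 against 41.5 CPM (4.26-fold, 3.77 to 4.82), as was Col8a1 at 106 against 31.9 CPM, although Col8a1 lay within 2-fold (0.88) among nuclei with exactly 3 or 4 gate markers.

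Glycoproteins and proteoglycans followed the collagens, with 1 of 33 measured genes higher and 10 lower (median log2 ratio -0.68). Tnxb (chr17:34670535-34719815), encoding tenascin-X, stood at 28.8 CPM at E14.5, against 538 CPM at E18.5 (18.7-fold lower, 15.6 to 22.5). The small leucine-rich proteoglycan genes Bgn (22.5 against 108 CPM), Aspn (91.0 against 383 CPM) and Prelp (0.468 against 10.4 CPM, from 2 and 101 UMIs) were lower. Ltbp1, which holds latent TGF-beta in the matrix, was higher at 552 against 124 CPM (4.44-fold, 4.14 to 4.77), with 989 CPM in Ttn-rich nuclei at E14.5. The provisional matrix genes Vcan (1601 CPM at E14.5 against 1966 CPM at E18.5) and Postn (1160 and 1699 CPM) were abundant and within 2-fold. Of 22 enzymes and inhibitors that process matrix, 4 were lower and 0 higher. They were Pcolce (30.4 against 150 CPM, 4.94-fold lower, 4.13 to 5.96), which speeds the cleavage of procollagen, the collagen prolyl hydroxylase subunit gene P4ha3 (26.2 against 77.2 CPM), and the lysyl oxidases Loxl1 (36.3 against 102 CPM) and Loxl3 (15.0 against 36.9 CPM), the last within 2-fold (-0.86) after thinning.

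Of 24 measured genes used as marks of postnatal fibroblasts, 13 were lower and 2 higher, with a median log2 ratio of -1.18. This was the lowest of the 25 lists in the gate used here, whereas among nuclei with exactly 3 or 4 gate markers the tenogenic list was lower (-1.97 against -1.47) and with Pdgfra alone the immediate early list (-1.43 against -1.41). Clec3b, encoding tetranectin, stood at 6.79 CPM at E14.5, against 104 CPM at E18.5 (15.3-fold lower, 10.6 to 22.9), and was found in 0.8% of thinned nuclei at E14.5 and 9.7% at E18.5 (unthinned 2.61% and 39.2%). Ly6a, the Sca-1 antigen of adult mesenchymal progenitors, had 1 UMI at E14.5 and 135 UMIs at E18.5, a ratio of 59.5-fold lower with an interval of 10.5 to 2369. The ectonucleotidase gene Entpd2 stood at 1.87 against 29.2 CPM and Hmcn2 at 0.702 against 19.8 CPM. Pi16, Dpp4, Cd34, Cd55, Penk, Cd248, Gsn, Smoc2 and G0s2 were the other lower members. Hmcn1, a hemicentin of the basement membrane, was higher at 592 against 185 CPM (3.21-fold), as was the adhesion molecule gene Vcam1 at 38.6 against 15.2 CPM. The lists of the adipogenic, tenogenic and skeletal lineages held few measured genes. Of 13 adipogenic genes 6 were lower and 0 higher, led among those with enough UMIs by lipoprotein lipase, Lpl, at 13.8 against 88.4 CPM (6.40-fold lower, 4.91 to 8.48), while the preadipocyte factor Zfp423 stood at 220 CPM at E14.5 and 180 CPM at E18.5. Among nuclei with exactly 3 or 4 gate markers 1 of 7 measured adipogenic genes was lower and 1 higher (median 0.24, against -0.66 in the gate used here), without nuclei with G2 and M UMIs 3 of 11 were lower and 2 higher, and after thinning 1 of 7 was lower. Of 8 tenogenic genes 3 were lower and 1 higher, the tendon homeobox gene Mkx (66.0 against 25.6 CPM). Of 13 chondro-osteogenic genes 4 were higher and 2 lower, with Runx2, the osteoblast regulator, at 135 against 60.7 CPM and the cartilage proteoglycan gene Acan at 3.98 against 14.8 CPM. Under both edgeR and DESeq2 scaling 1 was higher and 2 lower. Over the alternatives 0 to 8 genes of this list were higher and 0 to 3 lower, with medians between 0.022 and 1.61. Acan lay within 2-fold (-0.90) with nuclei chosen by Pdgfra alone. Mkx (0.15) and Runx2 (0.43) lay within 2-fold among nuclei with exactly 3 or 4 gate markers. Sox6, higher by 2.08-fold, had a log2 ratio of 0.61 without the 41 nuclei with fiber RNA, which were left out at E14.5 only. It also fell just within 2-fold with edgeR (0.996) and DESeq2 (0.981) scaling.

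Imprinted genes were lower or within 2-fold. Meg3 (chr12:109541001-109571726), a long noncoding RNA, was the most abundant of them at 3779 CPM at E14.5, against 9080 CPM at E18.5 (2.40-fold lower, 2.36 to 2.44). H19 (92.7 against 280 CPM), Ndn (13.1 against 38.5 CPM) and the zinc finger gene Zim1 (219 against 597 CPM) were also lower, 4 of 18 in all with 0 higher. Meg3 was at 9986 CPM in Ttn-rich nuclei at E14.5. Immediate early genes, which respond to stimulation and also to tissue handling, were lower in 5 of 12 cases with 0 higher. Klf2 had 11 UMIs (2.57 CPM) at E14.5 and 180 UMIs (18.6 CPM) at E18.5, and Fos 4 UMIs (0.936 CPM) and 49 UMIs (5.06 CPM), while Jun stood at 25.5 against 41.4 CPM. Their part in the other ratios was not tested.

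Cell cycle genes differed little. Among 17 S phase genes 0 were higher and 1 lower (E2f1, 19.7 CPM at E14.5 against 41.6 CPM at E18.5), and among 23 genes of the G2 and M phases 0 were higher and 1 lower (Ccna2, encoding cyclin A, 9.36 against 20.2 CPM). Neither call was firm. E2f1 lay within 2-fold after thinning (-0.90) and with at least 4 gate markers (-0.95), and Ccna2 in 7 alternatives, at -0.23 among nuclei with exactly 3 or 4 gate markers. The DNA polymerase gene Pola1 stood at 422 CPM at E14.5 and 409 CPM at E18.5, and Top2a at 177 and 313 CPM. In nuclei thinned to 1000 UMIs, 3 or more S phase UMIs were found in 18.4% at E14.5 (15.99 to 21.1%) and 17.7% at E18.5 (15.8 to 19.8%), and 3 or more G2 and M UMIs in 15.2% (12.9 to 17.7%) and 17.1% (15.2 to 19.1%). Of 14 genes of cholesterol and fatty acid synthesis, 0 were higher and 1 was lower.

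Outside the lists, the genes with the firmest differences were picked by the interval bound nearest to 1. Hs3st4 (chr7:123982869-124398989), a sulfotransferase that modifies heparan sulfate, stood at 99.2 CPM at E14.5 from 424 UMIs and at 1.03 CPM at E18.5 from 10 UMIs, a 96.1-fold difference (51.8 to 202). Rimklb, which encodes a ligase, stood at 66.0 against 1.24 CPM (53.3-fold, 30.0 to 104). The receptor phosphatase gene Ptprt (135 against 3.30 CPM, 40.9-fold) and Kif26b, a kinesin family gene of limb and kidney mesenchyme (228 against 5.68 CPM, 40.2-fold, 30.6 to 53.7), came next, followed by the noncoding RNA Rmst (170 against 5.78 CPM, 29.4-fold). Dpp10, Alk, Fam189a1, Nxph1, Dab1, Sgcz and Unc5d were 12.9-fold to 18.8-fold higher. All of these higher genes but Rimklb (51.5 kb) and Rmst (94.1 kb) are over 300 kb long, up to 1139 kb for Ptprt and Sgcz. Of all measured genes over 300 kb, 40.0% were higher, and the part of length in these ratios was not tested. Some of these genes were also transcribed in muscle nuclei of the same library. In Ttn-rich nuclei at E14.5, Ptprt stood at 831 CPM, Kif26b at 570 CPM, Dpp10 at 146 CPM and Unc5d at 130 CPM, whereas Rmst was at 5.90 CPM and Rimklb at 13.4 CPM. Unthinned, Hs3st4 was in 12.6% of the nuclei at E14.5 and 0.475% at E18.5, and Rimklb in 21.4% and 0.678%.

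The firmest lower genes outside the lists coded for enzymes, transporters, receptors and secreted proteins, among others. Lvrn, encoding the aminopeptidase laeverin, stood at 16.4 CPM at E14.5, against 292 CPM at E18.5 (17.8-fold lower, 14.1 to 22.9). Socs2, a suppressor of cytokine signalling, stood at 8.43 against 85.0 CPM, the adipogenesis-associated gene Medag at 8.89 against 88.3 CPM, and the amino acid transporter gene Slc7a10 at 5.85 against 62.2 CPM. Fndc1 was the most abundant of them, at 67.6 against 536 CPM (7.93-fold lower, 7.04 to 8.96). Igfbp7, Mill2, Mgp, S100a6 and Adgrd1 were 6.40-fold to 8.76-fold lower. Igfbp7 stood at 171 CPM in endothelial nuclei of the E14.5 library, and with nuclei chosen by Pdgfra alone its log2 ratio was -1.98, against -3.13 in the gate used here.

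The same gate in the other libraries gave 1191 nuclei at P5, 251 in the adult and 1062 in the Cacna1s-/- embryos at E18.5. The 251 adult nuclei held only 564440 UMIs in all, and 207 of them had a Ttn UMI. Low adult levels, such as those of Hmga2, Nrg1, Dcc and Unc5c, therefore rest on few or no UMIs. In the wild type, Slit2 stood at 744, 101, 94.6 and 26.6 CPM at E14.5, E18.5, P5 and in the adult, Dcc at 709, 108, 10.5 and 10.6 CPM, and Unc5c at 385, 38.9, 23.4 and 0 CPM. The high level of these genes was at E14.5 in each case. Tnxb stood at 28.8, 538, 570 and 1194 CPM over the same stages, Aldh1a1 at 3.74, 63.1, 128 and 576 CPM, and Col5a3 at 19.4, 237, 311 and 347 CPM, lowest at E14.5 in each case. Col1a1 and Meg3 had another course, with 333, 1294, 1176 and 280 CPM for Col1a1 and 3779, 9080, 8647 and 1467 CPM for Meg3, so that both were low at E14.5 and in the adult. A comparison of the Cacna1s-/- library would use the same wild-type E18.5 library as the comparison above, so its values are only set beside the others. Slit2 stood there at 486 CPM, Unc5c at 120 CPM, Dcc at 92.1 CPM, Hmga2 at 161 CPM, Tnxb at 118 CPM, Col5a3 at 102 CPM and Col1a1 at 684 CPM.

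**Figure D3:**
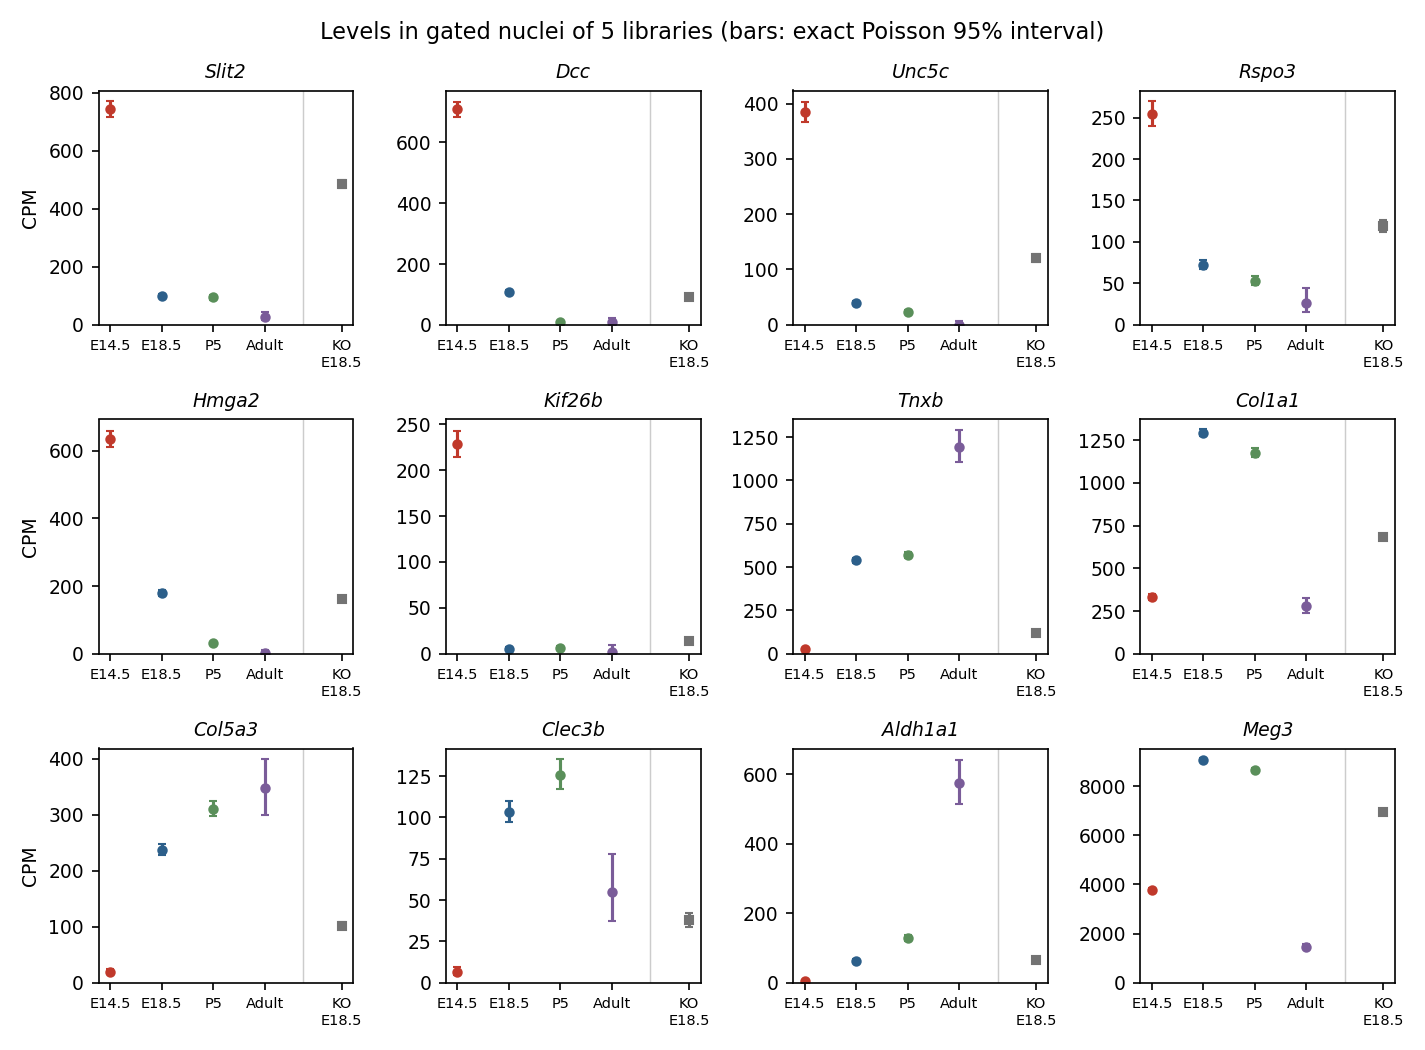
CPM of 12 genes in the gated nuclei of the wild type by stage and, right of the grey line, of Cacna1s-/- E18.5 (squares), with exact Poisson 95% intervals and each axis starting at 0. Slit2, Dcc, Unc5c, Rspo3, Hmga2 and Kif26b are highest at E14.5, and Tnxb, Col5a3, Clec3b and Aldh1a1 are lowest there.

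Open chromatin at promoters, which the gate did not use, was compared in peaks at gene starts that were matched between the libraries. Of 13490 measured promoter peak pairs, 515 (3.82%) were higher and 230 (1.7%) lower at E14.5, with counts scaled to the 1613323 and 5305025 ATAC counts of the gated nuclei in matched peaks at E14.5 and E18.5 (ATAC CPM). Scaled to the counts in all peaks instead, 899 were higher and 140 lower. RNA and chromatin leaned the same way. Of 758 genes with higher RNA and a peak pair, 105 had a higher and 10 a lower promoter peak (median log2 ATAC ratio 0.27), and of 879 genes with lower RNA, 10 had a higher and 65 a lower peak (median -0.20). Of 10039 genes within 2-fold in RNA, 97 had a higher and 63 a lower peak. Among genes whose annotated starts all lie within 1000 bases, 78 of 563 with higher RNA had a higher and 4 a lower peak, and 5 of 700 with lower RNA a higher and 55 a lower peak. Among genes that differed in RNA and had a peak pair, most promoters stayed within 2-fold. Such a pair was at hand for 758 of the 1163 higher and 879 of the 1233 lower genes. A pair needs a peak at the gene start in both libraries. Promoters with a peak at E14.5 only or at E18.5 only could therefore not be counted, and the share of changed promoters over all these genes is not known. The start of Slit2 had 79 counts (49.0 ATAC CPM) at E14.5 and 253 counts (47.7 ATAC CPM) at E18.5, and that of Unc5c 61 counts (37.8 ATAC CPM) and 222 counts (41.8 ATAC CPM). Among the named genes with a peak pair, Rimklb showed the largest promoter gain. It had 151 counts (93.6 ATAC CPM) at E14.5 and 129 counts (24.3 ATAC CPM) at E18.5, 3.85-fold higher (3.02 to 4.91). Hs3st4 had 48 counts (29.8 ATAC CPM) and 67 counts (12.6 ATAC CPM), 2.36-fold higher (1.59 to 3.46). Lower promoter peaks lay at Mgp (17 counts at E14.5, 184 at E18.5, 3.29-fold lower), Sfrp4 (29 and 272 counts, 2.85-fold), Cd44 (41 and 350 counts, 2.60-fold, 1.88 to 3.68) and Tnxb (26 and 220 counts, 2.57-fold). Col8a1 went against its RNA, with 11 counts at E14.5 and 84 at E18.5, a ratio of 0.43 beside an RNA ratio of 3.32.

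**Figure D4:**
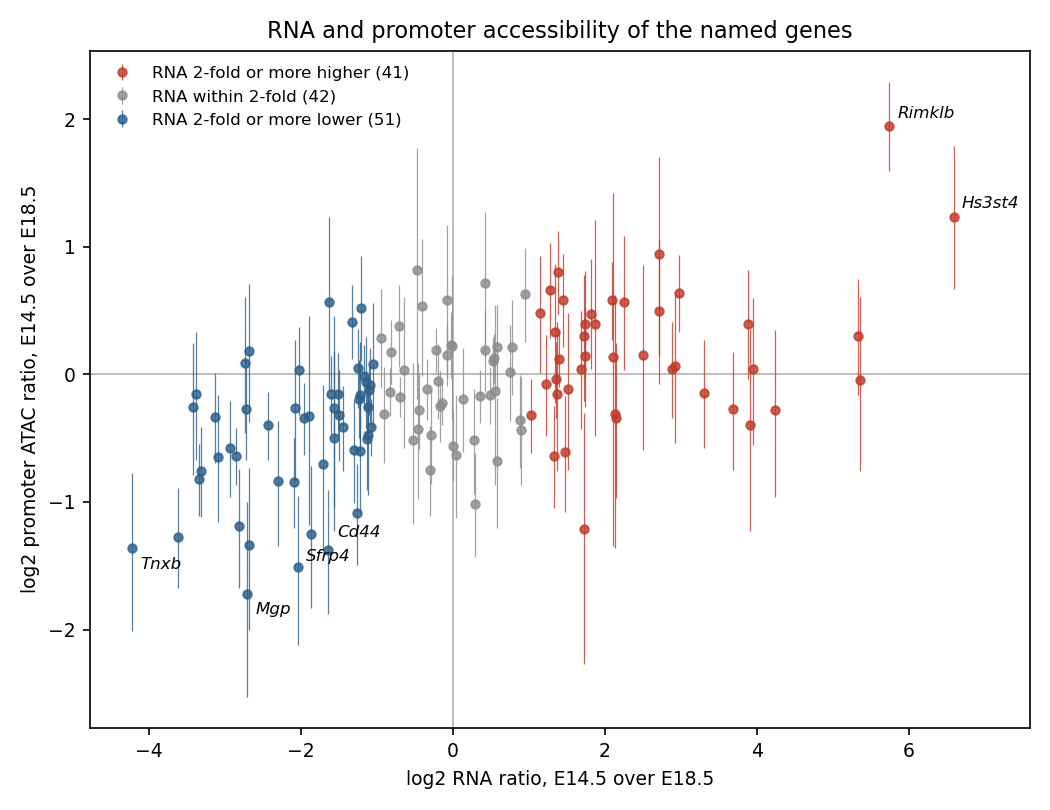
Log2 ratio, E14.5 over E18.5, of RNA (horizontal) and of promoter ATAC counts (vertical, bars for exact 95% counting intervals) for the named genes with a measured peak pair, 41 with higher, 42 with RNA within 2-fold and 51 with lower RNA. Rimklb and Hs3st4 stand at the upper right, and Mgp, Sfrp4, Cd44 and Tnxb at the lower left.

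The promoters of 3 of these genes are shown, because their accessibility moved with their RNA and RefSeq (GRCm38.p6) holds their sequence. Each is the 250 bases before the RefSeq start of the gene, 5′ to 3′ on the strand of the gene, with capitals for the GC box GGGCGG or its reverse complement. The positions are chr6:122486306-122486555 (minus strand) for Rimklb, chr7:123982578-123982827 (plus strand) for Hs3st4 and chr2:102901666-102901915 (minus strand) for Cd44. That start of Rimklb lies inside the span of the gene in GENCODE (chr6:122447296-122498761), which begins farther upstream, and the window lies within the matched peak.
Rimklb: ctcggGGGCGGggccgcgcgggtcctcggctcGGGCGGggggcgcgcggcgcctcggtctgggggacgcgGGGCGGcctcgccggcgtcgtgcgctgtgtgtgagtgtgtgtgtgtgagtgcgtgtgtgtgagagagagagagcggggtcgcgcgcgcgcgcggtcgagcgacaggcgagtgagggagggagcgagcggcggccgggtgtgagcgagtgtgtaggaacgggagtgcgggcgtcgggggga
Hs3st4: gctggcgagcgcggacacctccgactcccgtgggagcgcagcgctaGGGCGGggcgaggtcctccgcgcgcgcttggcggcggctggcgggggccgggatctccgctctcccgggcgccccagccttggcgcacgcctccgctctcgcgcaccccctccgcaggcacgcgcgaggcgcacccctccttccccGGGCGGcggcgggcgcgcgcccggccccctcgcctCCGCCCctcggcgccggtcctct
Cd44: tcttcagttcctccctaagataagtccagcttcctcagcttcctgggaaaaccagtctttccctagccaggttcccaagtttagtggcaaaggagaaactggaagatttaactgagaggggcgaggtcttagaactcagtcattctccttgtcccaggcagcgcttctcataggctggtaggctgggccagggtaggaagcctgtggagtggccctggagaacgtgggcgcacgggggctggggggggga
The windows held 42 CpG dinucleotides and 76.4% G and C for Rimklb, 43 and 82.0% for Hs3st4, and 5 and 56.4% for Cd44. This contrast is one of these 3 genes, since the median promoter held 13 CpG and 59.2% G and C over all higher genes, 11 and 58.4% over all lower genes, and 16 and 60.0% over measured genes. A search on both strands for TATAAA (the TATA box), CCAAT (the CCAAT box), GGGCGG (the GC box), TGANTCA (the AP-1 site) and CATTCC (the TEAD site), found only GC boxes, 245, 218 and 180 bases before the start of Rimklb and 204, 58 and 23 bases before that of Hs3st4. None of the 5 was found in the window of Cd44. GC boxes occur in 32.9% of 27025 promoters of this length and in 58.7% of those of measured genes, in 46.6% of those of higher genes and in 54.2% of those of lower genes. The AP-1 letters occur in 3.68% of the promoters of higher genes, 7.65% of those of lower genes and 3.85% of those of measured genes, and the TATA letters in 8.87%, 8.999% and 6.29%. These are matches of letters, and no binding was measured.

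The 918 nuclei at E14.5 were not uniform. Clustered alone, without the gate and cell cycle genes, they formed 8 sub-clusters of 224, 195, 140, 110, 79, 72, 57 and 41 nuclei, which are described by their leading genes. Sub-cluster 1 was led by Egfem1, Adgrg2, Mecom and Foxp2 (2134 CPM), among others, and held the highest Mkx (158 CPM) and Runx2 (317 CPM). Sub-cluster 2, led by Cdh12, Slc22a22 and Aldh1a3, had the most cell cycle RNA (4994 CPM over both lists, against 1668 to 4296 CPM in the others) and the highest Hmga2, at 1127 CPM. Sub-cluster 3 held 46.4% of all Nrg1 UMIs in 15.3% of the nuclei, at 6232 CPM, and was led by Rxfp2, Grm8 and Nrg1, among others. Nrg1 thus ranged between 149 CPM in sub-cluster 6 and 6232 CPM in sub-cluster 3.

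Sub-cluster 4 was led by Gucy1a1, Grik2 and Rspo2, among others, with Gli1 at its highest (60.2 CPM). Sub-cluster 5 was led by Ptchd1, Zmat4, Anxa3 and Alk. Sub-cluster 7 was led by Prdm1, Cadps, Sim1 and Wt1, among others. It held Axin2, a target of Wnt signalling, at 84.4 CPM, against 2.88 to 12.5 CPM in the others, with Slit2 at 1816 CPM and Twist2 at 304 CPM. Sub-cluster 8 was led by the muscle genes Trdn, Casq2 and Myl1 together with Trp63, among others. Its nuclei had a median of 9627 UMIs, and 34 of the 41 were called doublets. Without it at E14.5, and with all 1475 nuclei kept at E18.5, 1074 genes were higher and 1383 lower.

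Several genes with less RNA at E14.5 as a whole were concentrated in sub-cluster 6, led by Htr1f, Sntg1, Cpa6 and Pparg. Its 72 nuclei are 7.84% of the total, and they held 62.2% of the UMIs of Pparg, the adipocyte regulator, which was within 2-fold between the stages. They also held 43.1% of those of Adgrd1, 40.6% of those of Cd55, 36.1% of those of Col5a3, 34.5% of those of Clec3b, 34.0% of those of Dpt, 32.9% of those of Dpp4 and 26.3% of those of Fndc1. Col14a1 stood there at 1332 CPM, against 182 to 554 CPM in the others, Col1a1 at 651 CPM, against 217 to 435 CPM, and Sema3c at 1498 CPM, against 134 to 643 CPM. Ebf2, by contrast, was at its lowest there, at 485 CPM. The hindlimb factors Pitx1 (16.6 CPM) and Tbx4 (10.0 CPM) were also at their lowest there, but from few UMIs, so their rank is not firm. The leading genes of a sub-cluster also formed it, so these values describe it and test nothing.

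**Figure D5:**
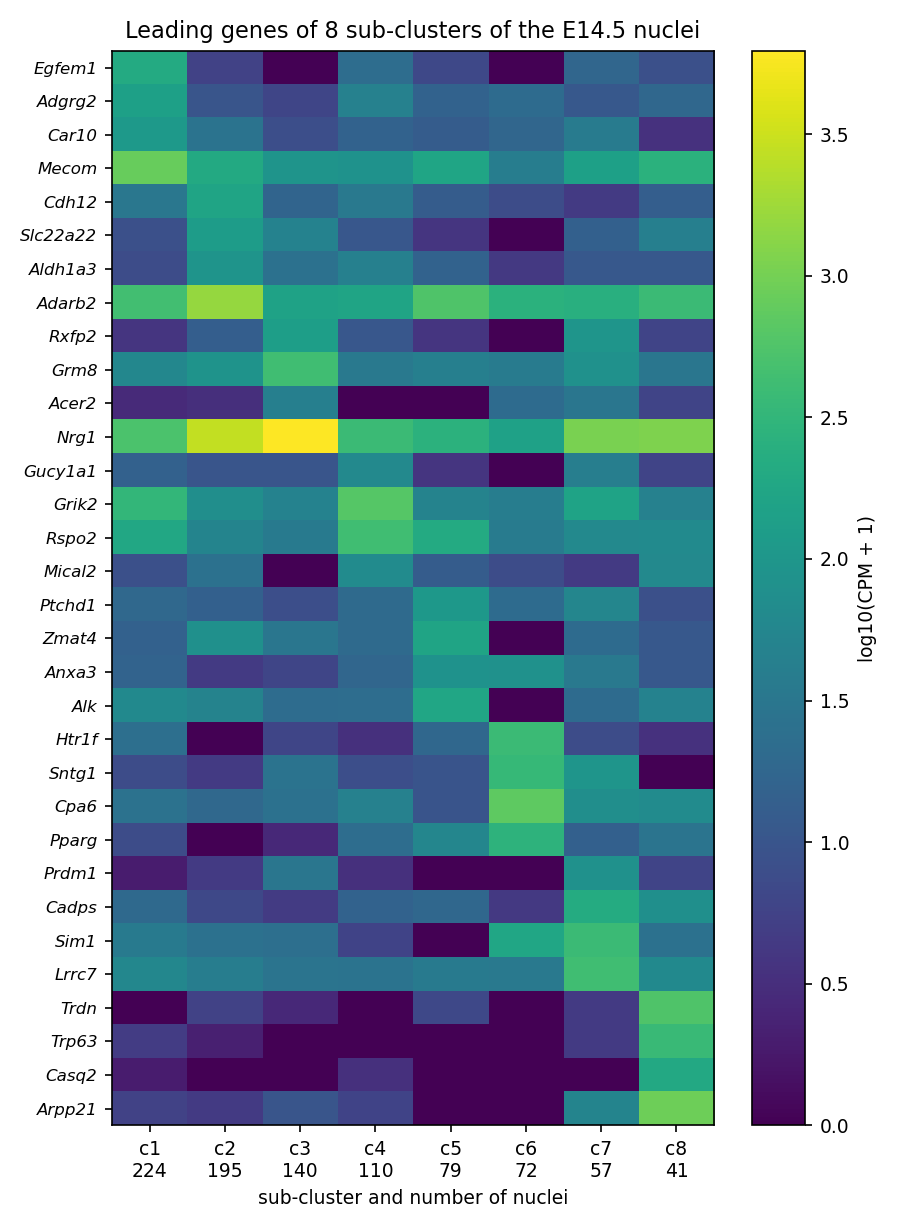
Log10(CPM + 1) of leading genes (rows) in the 8 sub-clusters of the E14.5 nuclei (columns, with their number of nuclei). Each block of high values marks the leading genes of 1 sub-cluster, such as Nrg1 in sub-cluster 3 and Pparg in sub-cluster 6.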

How the data were processed

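The authors deposited, for each library, a matrix of raw whole-number counts by nucleus, of UMIs for genes and of ATAC for peaks. They made it with Cell Ranger ARC 2.0.0 on mm10, counted reads in introns too, and called the peaks of each library apart. Whether counting used the strand is not given in the sources used here, so reads of overlapping and antisense genes cannot be told apart. Nuclei were gated as described above, and UMIs were summed over them per library and divided by their total (CPM). Fold changes are E14.5 over E18.5 with exact conditional intervals, and levels have exact Poisson intervals. A gene at 0 took 3 counts as its floor in that library. The 10 gate markers, Ttn and Tnmd were left out of the counts of higher and lower genes and of the 25 gene lists, but not of the sums of cell type markers. Members, lists and rules were chosen with earlier results of these data known.

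The genes named were, per list, up to 4 in each direction with the widest CPM ratio among those with at least 50 UMIs over both libraries, and up to 2 within 2-fold with the highest CPM. Outside the lists they were the 12 in each direction whose interval bound nearest to 1 was farthest from it, with at least 50 CPM in 1 library and no mitochondrial or provisional names. For promoters they were up to 4 in each direction by ATAC ratio. Some genes picked by these rules are not reported here. Other members that were higher or lower are named without values, and genes shown by sub-cluster were chosen after their values were seen. A promoter peak covers or lies within 1000 bases of a gene start, taken as the stretch between the first and last start that the deposited files give. In 2748 of 15833 matched genes, Rimklb, Sfrp4 and Tnxb among them, this stretch is longer than 1000 bases, so the peak can lie between 2 starts. Peaks of both libraries were matched when they overlapped by at least 50% of each. Gene positions and lengths are those of the GENCODE annotation of GRCm38, matched for 13653 of 13662 measured genes, and promoter sequences those of RefSeq, matched for 10342 of the measured genes.

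For shares, nuclei were thinned to 1000 UMIs, which left out 2 at E14.5 and 7 at E18.5. The endothelial gate needed at least 3 of 8 endothelial markers, Ttn under 1% and a nucleus outside the mesenchymal gate, and gave 111 nuclei at E14.5. Ttn-rich nuclei had Ttn at 1% or more (1872 nuclei at E14.5, median 4873.5 UMIs). Sub-clusters came from Leiden clustering at resolution 0.6 with 2000 variable genes, 20 components and 15 neighbors (scanpy 1.11.5, leidenalg 0.10.2, Python 3.11.15). Doublets were called with Scrublet. Alternative scalings used edgeR 4.0.16 and DESeq2 1.42.0 in R 4.3.3, for factors only, since 1 library per group allows no test. The counting was tested on simulated data.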

Additional observations from a re-analysis of the deposited data

How the results depend on the processing

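Settings moved the counts of higher and lower genes. Of 119 named genes that were higher or lower, none changed direction over 15 alternatives where measured, and 23 came within 2-fold in at least 1 of them. These genes were picked by their ratios in the same data, and the alternatives reuse nuclei of the same libraries, so few reversals could arise. Over all genes, 6 were called in the opposite direction without sub-cluster 8. That alternative left nuclei out at E14.5 only and kept all 1475 at E18.5. The other values given without these nuclei were made in the same way. Without called doublets in both libraries 1178 genes were higher and 1118 lower, and 0 were called in the opposite direction. With at least 4 gate markers, with Pdgfra alone and with exactly 3 or 4 markers, 1 gene each was called in the opposite direction. The gate gave 488 nuclei at E14.5 with at least 4 markers and 1383 with at least 2. Thinning to 1000 UMIs, which left 8743 measured genes, gave 624 higher and 790 lower genes. Measuring from 50 UMIs gave 684 higher genes, and from 1 UMI 3657. With edgeR scaling 1058 were higher and 1356 lower, and with DESeq2 size factors 1036 and 1383. Among nuclei with exactly 3 or 4 gate markers in both libraries (721 at E14.5 and 357 at E18.5), an alternative chosen after seeing the data like those without the nuclei with fiber RNA and without the nuclei with neuronal markers, 1104 genes were higher and 743 lower. Promoter peaks scaled to all peak counts gave 899 higher and 140 lower. Only genes with all starts within 1000 bases, also an alternative chosen after seeing the data, gave 400 and 168. Over the alternatives the median log2 ratio ran between 0.55 and 0.82 for axon guidance genes, 0.40 and 0.76 for Wnt genes, -0.89 and -0.57 for collagens and -1.59 and -1.18 for postnatal fibroblast genes. It changed sign for adipogenic (0.24), BMP (-0.066) and G2 and M genes (0.23) among nuclei with exactly 3 or 4 markers, for tenogenic (0.20) and BMP genes (-0.23) after thinning, for G2 and M genes (0.30) without nuclei with G2 and M UMIs, and for the Hedgehog, trophic, adhesion and S phase lists, whose medians lay near 0. The cause was not tested. No paired analysis was possible because each group is 1 library. Genes with few UMIs, such as Ly6a, Prelp, Il34 and Lin28b, are limited by depth.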
